A study of Mus musculus with 67 samples.

Results

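RNA was read by SMART-seq2 in mouse 2-cell embryos that had been lit or kept dark, and the comparison described here is light against control at the 2-cell stage. Its members are the libraries whose labels give the 2-cell stage, 6 light and 7 control libraries, 13 of the 67 libraries of the series. All embryos were C57BL/6, made by in vitro fertilization from superovulated dams of 6 weeks and sires of 10 weeks. Light of 5000 lx was given to the light group during 6 h of the 2-cell stage, whereas the control group was kept at 0 lx. The sources used here give no hour of collection, so a difference in light and a difference in developmental age between the groups cannot be told apart. According to the methods, single cells were taken by hand after embryos were dissociated. The labels number the samples as embryos but name no litter, dam or culture, and whether some libraries of a group are cells of the same embryo is not given in the sources used here. The group sizes may thus count cells rather than embryos, and the p-values measure the spread between these libraries, which may be technical. Fewer cells and less RNA per cell cannot be told apart from the values.

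Of 7 measures of depth and composition, 1 separated the groups. Total reads lay between 836010 and 6978458 in the light group and between 2758067 and 8151789 in the control group, and 1 read was worth up to 3.89 units of the deposited value (light library 16). The cDNA was amplified without molecular identifiers, so any limit derived from reads covers counting error alone. The ratio of Gm42418 to CT010467.1, the pair of rRNA-derived features that took most reads of each library, was 1.58 to 1.77 in the light group and 2.34 to 4.03 in the control group, with no overlap (two-sided exact permutation test over 1716 regroupings, p = 0.00117, 0.00816 adjusted over 7 library measures). These features also set the scale of the deposited values, so a batch of library preparation and the light cannot be told apart. The other 6 measures, among them total reads, genes detected and the share of mitochondrially encoded reads, had exact permutation p of 0.132 or more. All 16 markers of the 2-cell embryo were tested and none was at 0 in all libraries of a group. Of them 1 was called higher and 3 lower, with a median log2 difference of -0.65 and 12 negative (0 higher and 7 lower without light libraries 14, 15 and 16), and their summed level had a median of 0.4003% of the values outside Gm42418 and CT010467.1 in the control and 0.312% in the light group. These markers share members with the lists of oocyte genes below. Sperm markers summed to 0.00455% of these values in the control median and 0.00467% in the light median. Cumulus and granulosa cell markers summed to 0.00461% to 0.0203% in the control group and 0.0113% to 0.0289% in the light group (medians 0.0102% and 0.0272%), with 6 of 17 listed genes at 0 in all control libraries, 5 at 0 in all light libraries and 8 above the filter on low values. Of these 8, 1 was called higher, Tnfaip6, at 0 in 6 of 7 control and 1 of 6 light libraries (p = 0.0343), and its call was lost in 9 of the fits that left out 1 library. The part of the cumulus markers in the results was not tested.

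As background, the fertilized mouse egg starts with RNA and protein stored during oocyte growth. Maternal RNA is cleared by deadenylation and decay while the embryonic genome is switched on, in a minor wave in the zygote and a major wave in the late 2-cell embryo. Transcripts for ribosomes, nucleoli, RNA processing and protein turnover are among those that the major wave brings, and endogenous retroviral promoters and their neighbors, such as the Zscan4 genes, mark its transient 2-cell program.

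The light and control groups differed in 1943 of the 18510 genes tested (10.5%), of which 1024 were higher in the light group (5.53%) and 919 were lower (4.96%). The counts given below for each list are to be read beside these shares. Calls were made with limma on log2 of the value plus 1, for an adjusted p under 0.05 together with a change of 2-fold or more, among genes exceeding a value of 1 in 3 or more libraries. Below, a level is the deposited value (reads scaled by a factor for each library, with no account of gene length), given as lowest, median and highest of a group, a difference is light minus control on the log2 scale with its standard error, and p is adjusted over all genes tested. Groups did not overlap for 769 genes (4.15%), and 689 were called without overlap (3.72%). Most genes named from the lists below were picked as called genes of small p. A lack of overlap in them is therefore a description and no further evidence. With each library left out in turn, 1053 genes stayed called, 533 higher and 520 lower. The number of higher genes fell to 682 without light library 10, to 677 without light library 12 and to 675 without light library 14. The median difference over all genes tested was 0.00.

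The promoters of the genes that rose held the E-box CACGTG, which reads the same on both strands and is the site of MYC, USF and CLOCK family factors, more often than those of the genes that fell. RefSeq promoters of GRCm38.p6 (300 bases around the start) were matched for 11923 of the genes tested, with 15123 promoters. The E-box was in 157 of 901 promoters of the higher genes (17.4%), in 50 of 872 promoters of the lower genes (5.73%) and in 1406 of all 15123 (9.30%). Both sets of called genes were read at a similar level in the 2-cell libraries, with a median over genes of the mean value of 97.0 and 91.2, against 13.6 for all genes tested. Among lists of 40 or more promoters the share did not follow the number of genes that rose. It was 21.9% for translation factors (14 of 64), 19.3% for RNA polymerase, general factors and Mediator (22 of 114) and 15.8% for nucleolar ribosome biogenesis (12 of 76). It was also 17.8% for cholesterol and fatty acid synthesis (8 of 45), where 3 of 44 genes rose. Other lists with many risen genes lay near the share of all promoters, with 10.7% for cytosolic ribosomal proteins (8 of 75), 9.33% for mitochondrial ribosomal proteins (7 of 75), 8.86% for core spliceosome proteins (7 of 79) and 8.0% for the proteasome (4 of 50). Other motifs, searched on both strands, differed by fewer percentage points between higher and lower genes. The GC box GGGCGG was in 64.0%, 59.7% and 57.0%, the CCAAT box in 40.6%, 35.9% and 38.1%, the heat shock element GAANNTTC in 7.44%, 5.39% and 6.03%, the antioxidant response element TGACNNNGC in 14.0%, 14.2% and 14.1%, the AP-1 site TGACTCA in 2.22%, 3.33% and 3.76%, and the TATA box TATAAA in 6.99%, 6.88% and 7.72%. The median GC content was 60.3%, 62.3% and 59.7%. These shares are descriptions of letters and were not tested.

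Stretches of 250 bases before the start, on the strand of the gene, are shown for 4 genes that rose and for Ptprs, a gene that fell, with each E-box in capitals. They were picked after the matches were known, and show how copy number and distance to the start vary. The stretch of Nxf2 lies at chrX:134964755-134965004 (minus strand), that of Eif4e at chr3:138527018-138527267 (plus), that of Eef2 at chr10:81176381-81176630 (plus), that of Gtf2h1 at chr7:46795844-46796093 (plus) and that of Ptprs at chr17:56476481-56476730 (minus).
Nxf2: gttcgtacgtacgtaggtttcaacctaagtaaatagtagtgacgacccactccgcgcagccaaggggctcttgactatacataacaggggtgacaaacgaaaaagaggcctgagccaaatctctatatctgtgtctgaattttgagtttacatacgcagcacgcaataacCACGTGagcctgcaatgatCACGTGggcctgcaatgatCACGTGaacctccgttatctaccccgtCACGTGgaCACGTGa
Eif4e: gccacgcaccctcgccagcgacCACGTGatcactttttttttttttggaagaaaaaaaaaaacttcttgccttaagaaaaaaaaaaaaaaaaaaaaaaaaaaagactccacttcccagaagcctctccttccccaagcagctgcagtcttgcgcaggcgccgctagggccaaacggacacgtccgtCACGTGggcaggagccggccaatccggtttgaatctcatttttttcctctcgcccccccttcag
Eef2: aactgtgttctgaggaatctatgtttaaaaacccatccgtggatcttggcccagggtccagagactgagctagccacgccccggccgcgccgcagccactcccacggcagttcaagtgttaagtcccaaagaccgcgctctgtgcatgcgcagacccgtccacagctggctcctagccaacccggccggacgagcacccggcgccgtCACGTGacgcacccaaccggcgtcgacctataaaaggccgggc
Gtf2h1: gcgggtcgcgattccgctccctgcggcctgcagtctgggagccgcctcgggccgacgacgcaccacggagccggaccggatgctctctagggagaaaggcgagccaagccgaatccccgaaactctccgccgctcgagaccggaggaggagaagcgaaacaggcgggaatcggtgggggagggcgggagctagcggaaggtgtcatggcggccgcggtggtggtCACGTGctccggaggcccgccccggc
Ptprs: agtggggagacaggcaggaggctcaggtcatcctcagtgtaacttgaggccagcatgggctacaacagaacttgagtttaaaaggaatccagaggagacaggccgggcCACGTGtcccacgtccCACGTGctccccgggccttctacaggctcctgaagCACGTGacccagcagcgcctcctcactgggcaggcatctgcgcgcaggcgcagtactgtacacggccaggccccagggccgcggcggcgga

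Nxf2 held 5 matches within 80 bases of its start, Eif4e 2 at 228 and 64 bases, Eef2 1 at 43 bases and Gtf2h1 1 at 26 bases. Ptprs held 3, at 142, 126 and 91 bases, and its level was lower in the light group.

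The genes with the largest changes were chosen among those whose groups did not overlap, so their separation is a description. Among called genes whose groups did not overlap and whose mean reached 10, the 8 with the largest rise were Arg1, Cxadr, Nxf2, Mmp24, Hars2, Fbxo47, Zfp677 and Gtf2h2. Nxf2, an mRNA export factor of the germline, was read at 0, 6.21 and 23.9 in the control group and at 28.3, 138 and 206 in the light group (4.39 ± 0.71, p = 0.000172). Mmp24, a membrane-bound metalloproteinase, reached at most 4.6 in control libraries and at least 30.0 in light ones (4.24 ± 0.75, p = 0.000435). Hars2, the mitochondrial histidyl-tRNA synthetase, was read at 0, 1.04 and 8.97 against 10.0, 31.7 and 183 (4.05 ± 0.80, p = 0.00106). Levels came nearer to each other for Gtf2h2, a TFIIH subunit, at 0, 2.38 and 10.4 against 11.7, 39.2 and 101 (3.81 ± 0.81, p = 0.00212). Fbxo47, an F-box protein, was at no more than 10.4 against no less than 15.5 (p = 0.00104), and Zfp677 at no more than 9.37 against no less than 27.2 (p = 0.000955). Arg1, the arginase that makes ornithine, and Cxadr, an adhesion protein of tight junctions, had control medians of 3.12 and 1.38 and light medians of 154 and 101.

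The 8 largest falls, of which 7 are described, included Smco4, Cyp26a1, Ybx2, Crb2, Wfs1, Pbx2 and Olfr976. Ybx2, a Y-box protein that binds and stabilizes stored mRNA in germ cells, was the most precisely measured of the 7, at 141, 248 and 429 in the control group and 2.48, 23.7 and 33.5 in the light group (-3.86 ± 0.47, p = 7.75e-06). Wfs1, a protein of the endoplasmic reticulum membrane, was read at 13.9, 46.9 and 85.7 against 0, 2.51 and 7.77 (-3.71 ± 0.75, p = 0.00145), and Pbx2, a homeodomain cofactor, at 20.9, 27.6 and 73.1 against 0, 1.98 and 8.26 (-3.64 ± 0.77, p = 0.00213). Cyp26a1, the retinoic acid hydroxylase, was at 7.93 to 53.8 in control libraries and at 0 in 5 of 6 light libraries, with 2 reads in light library 16 (p = 0.00193). Crb2, a polarity protein, was at 2.76 to 40.0 in control libraries and at 0 in 5 of 6 light libraries, with 1 read in light library 9 (p = 0.00137). With so few reads in the light group no fold is given for either, and a count of 0 allows up to 3 reads in a library.

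**Figure D1:**
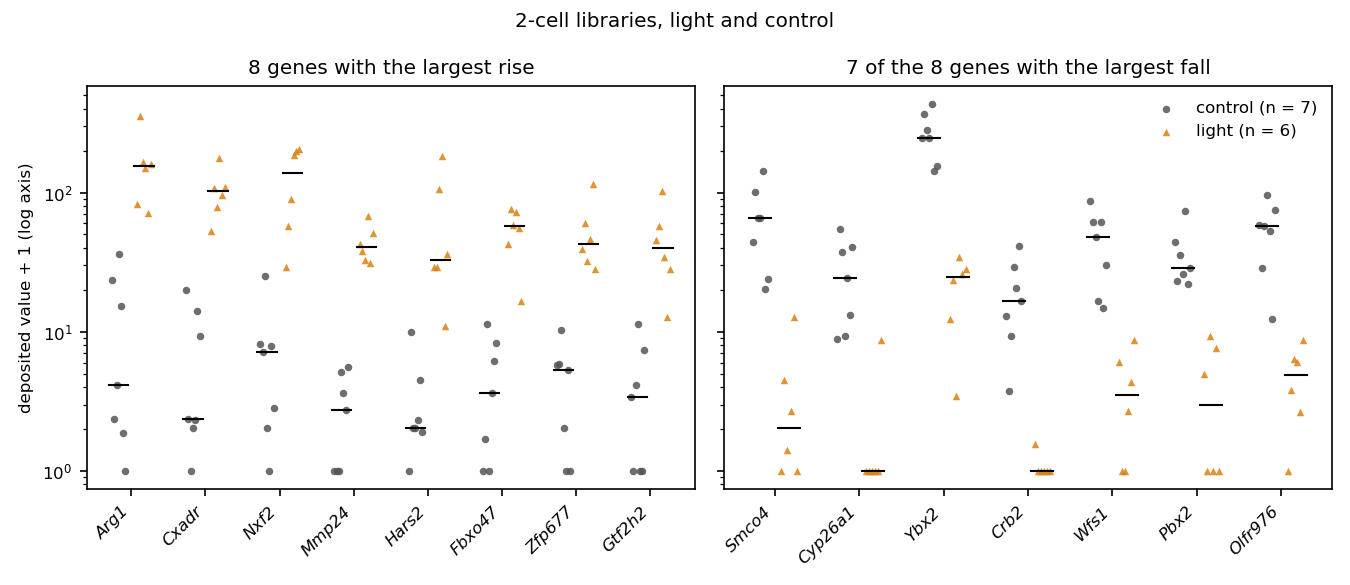
Deposited value plus 1 (log axis) of the 8 genes with the largest rise and 7 of the 8 with the largest fall in each 2-cell library, control (circles, n = 7) and light (triangles, n = 6), with bars at the group medians. The 15 genes were chosen among those whose groups do not overlap, as with Ybx2 at 141 to 429 in the control and 2.48 to 33.5 in the light group.

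Leaving out the 3 light libraries with the fewest reads outside Gm42418 and CT010467.1 (14, 15 and 16) left these 15 genes called and moved the difference by more than 1.5-fold for Nxf2, to 3.45, for Gtf2h2, to 4.55, for Ybx2, to -4.64, and for Wfs1, to -4.38.

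The oocyte transcripts that changed were lower in the light group. Of 30 tested genes of oocyte growth and the zona, 10 fell and 0 rose (4.96% of all genes fell), with a median difference of -0.96 and 25 negative. Bmp15, an oocyte growth factor, was read at 1355, 2434 and 3779.7 in the control and at 359, 501 and 781 in the light group (-2.19 ± 0.24, p = 1.01e-06). Bcl2l10, an oocyte BCL2 family protein, showed the same gap at 759, 1232 and 3118 against 77.2, 211 and 299 (-3.04 ± 0.32, p = 9.89e-07), as did Oosp3, an oocyte secreted protein, at 199, 385 and 603 against 31.1, 76.9 and 122 (-2.37 ± 0.35, p = 6.67e-05), and Rfpl4, an oocyte RING finger protein, at 439, 741 and 1313 against 99.9, 221 and 277 (-1.95 ± 0.29, p = 8.63e-05). The groups did not overlap for any of the 4. The fall did not include every member. Gdf9, the partner of Bmp15, was read at 214, 263 and 361 against 82.1, 139.9 and 513 (-0.55 ± 0.37, p = 0.362), and Zp3, a zona protein, at 19.4, 62.5 and 117 against 42.7, 68.9 and 108 (0.40 ± 0.45, p = 0.629). Summed, the list made up 1.43% to 2.69% of the values outside Gm42418 and CT010467.1 in the control group and 0.546% to 1.76% in the light group, with medians of 2.12% and 0.914%.

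Genes of the subcortical maternal complex and its Nlrp relatives, a multi-protein structure of the egg cortex required for cleavage, fell in 7 of 16 and rose in 0, with a median of -1.11 and 14 negative. Nlrp4a was read at 181, 230.5 and 480.1 against 33.9, 52.7 and 103 (-2.18 ± 0.35, p = 0.000176). Nlrp4f was read at 171, 649 and 1132 against 63.6, 144 and 180.2 (-2.07 ± 0.36, p = 0.000383), with a small overlap. Reads of the Nlrp4 paralogs may be shared between copies, so the split between them is uncertain. Zbed3, a partner of the complex, was read at 10921, 15693 and 31703 against 3357, 8621 and 12931 (-1.17 ± 0.26, p = 0.00346), which fell under a 2-fold change without light library 12 (-0.93) and was not called after quantile normalization (-0.49, p = 0.0706). The calls of core members depended on single libraries. Nlrp5 (also MATER) was at -1.10 ± 0.36 (p = 0.043) and lost the call without control library 8, 9, 10 or 12 or light library 9, 10, 12 or 14 (p up to 0.116). Ooep was at -2.19 ± 0.66 (p = 0.0283) and lost it without light library 14 (-1.44, p = 0.079), without control library 10 (p = 0.0589), without light libraries 14 to 16 (p = 0.055) or with edgeR (p = 0.0814). Without light library 14 the list had 4 lower genes.

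Factors that store, translate and remove maternal RNA fell in 9 of 44 and rose in 1, with a median of -0.23. Cnot6l, the deadenylase of the CCR4-NOT complex that acts on maternal RNA, was read at 512, 625 and 835 in the control and 58.6, 175 and 215 in the light group (-2.06 ± 0.30, p = 6.14e-05). Pan3, of the PAN2-PAN3 deadenylase, was read at 899.7, 1377 and 2585 against 292, 426 and 639 (-1.73 ± 0.25, p = 6.67e-05). Neither gene overlapped between groups. Eif4e1b, the oocyte form of the cap-binding protein, fell by 1.56 ± 0.32 (304, 471 and 849 against 111, 143 and 354, p = 0.00144). Btg4, the adapter that brings CCR4-NOT to maternal RNA, was read at 1181, 1973 and 3231 against 461, 778 and 1869 (-1.28 ± 0.28, p = 0.00278), and came to -0.99, under a 2-fold change, after quantile normalization.

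The result for the transient 2-cell program depended on the libraries used. Of 33 tested genes, 2 rose and 0 fell, with a median of -0.12. Without light libraries 14, 15 and 16, 1 rose and 7 fell (21.2%, against 5.65% of all genes lower in that fit), with a median of -1.14. With edgeR, which called 5.71% of all genes higher and 5.97% lower, 4 rose, 0 fell and the median was 0.43. Zscan4d was read at 26.2, 75.4 and 187 in the control and 2.48, 79.0 and 419 in the light group (-0.36 ± 0.68, p = 0.788). Zfp352 was read at 71.7, 118 and 204 against 26.6, 44.3 and 364 (-0.57 ± 0.52, p = 0.523). The spread within the light group exceeded the distance between the groups for both. The pair that rose were members of a large TD and POZ domain family. Tdpoz2 was read at 0, 10.1 and 49.6 against 58.3, 78.9 and 188 (3.64 ± 0.77, p = 0.0021) and Tdpoz1 at 7.59, 61.5 and 149.9 against 88.8, 190.7 and 289.9 (1.75 ± 0.49, p = 0.0199, 0.0573 without light library 14 and 0.224 without libraries 14 to 16). Zscan4 and Tdpoz genes have near-identical copies, so their values are uncertain.

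Early zygotic genes, those known to come on with genome activation and to persist, rose in 9 of 24 and fell in 1 (5.53% and 4.96% of all genes), with a median of 0.93. Hspa8, the constitutive HSP70 chaperone, was read at 66.2, 148 and 234 in the control and 361, 546 and 941 in the light group (2.02 ± 0.31, p = 0.000113). Ctsl, a lysosomal protease, was read at 124, 329 and 632 against 903, 1218 and 1552 (1.94 ± 0.33, p = 0.0003). Dppa2, which with Dppa4 activates genes in early embryos, was read at 31.2, 72.6 and 251 against 264, 434 and 571 (2.15 ± 0.42, p = 0.00102). Dppa4 was read at 37.9, 129 and 294 against 229, 457 and 701 (1.84 ± 0.39, p = 0.00221). The groups were apart for Hspa8, Ctsl and Dppa2 and overlapped for Dppa4. The member that fell was Obox5, an oocyte homeobox gene with close paralogs, at 409, 483 and 1019 against 85.1, 166 and 280.3 (-1.77 ± 0.30, p = 0.000276). The summed list made up 0.326% to 0.482% of values in the control group and 0.555% to 0.700% in the light group, without overlap.

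Nucleolar ribosome biogenesis had the highest median of the 43 lists. Of its 76 genes, 31 rose and 0 fell, with a median of 1.20 and 74 positive (20 rose without light library 12). Nop56, a core protein of box C/D snoRNPs, was read at 67.7, 76.6 and 222 in the control and 319, 447 and 481 in the light group (2.00 ± 0.32, p = 0.000172). Dkc1, the pseudouridine synthase of box H/ACA snoRNPs, was read at 51.7, 76.0 and 216 against 268, 433 and 527 (2.03 ± 0.35, p = 0.000317). Ltv1, needed for maturation of the small subunit, was read at 14.6, 70.6 and 111 against 157, 273 and 478 (2.28 ± 0.41, p = 0.000451). All 3, picked as called genes of the list, were higher in every light than in every control library. Over the whole list the groups did not overlap for 12 of 76 genes (15.8%, against 4.15% of all genes). Fbl, the methyltransferase of box C/D snoRNPs, overlapped, at 64.8, 167 and 214 against 113, 256 and 337 (0.73 ± 0.36, p = 0.194). The list made up 0.355% to 0.981% of values in control libraries and 0.952% to 1.70% in light libraries.

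Cytosolic ribosomal proteins rose in 27 of 86 and fell in 0, with a median of 1.00 and 80 positive. Rplp0, of the stalk that recruits elongation factors, was read at 160.3, 519.6 and 750.2 in the control and 781, 1315 and 1949 in the light group (1.56 ± 0.30, p = 0.000757). Rpl3 was read at 20.9, 36.4 and 76.1 against 105, 118 and 268 (1.80 ± 0.40, p = 0.00368) and Rpl5 at 22.9, 54.8 and 77.2 against 128, 162 and 320.0 (1.85 ± 0.39, p = 0.00192), without overlap. These genes have many processed pseudogenes that can share their reads. The direction held in every fit, while the count rested on single libraries and came to 8 without light library 12, 12 without control library 9 or 10, 13 without light library 10, 15 without light library 9, 16 without control library 8, and 16 without light libraries 14 to 16.

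Translation factors rose in 21 of 62 and fell in 3, with a median of 0.91. Eif3e, a subunit of the initiation factor that brings mRNA to the small subunit, was read at 1.19, 13.8 and 50.5 in the control and 101, 129 and 260.1 in the light group (3.51 ± 0.62, p = 0.000431). Eef2, the translocation factor, was read at 98.8, 309 and 447 against 588, 798 and 1042 (1.55 ± 0.30, p = 0.000792), and Eif4e, the somatic cap-binding protein, at 274, 431 and 504 against 703, 999 and 1409.8 (1.33 ± 0.25, p = 0.000695). The 3 were apart between groups. Eif4e3, a relative of the cap-binding protein, went the other way at 159, 304 and 515 against 59.9, 88.5 and 125 (-1.80 ± 0.33, p = 0.0005). Within the cap-binding family, Eif4e was therefore higher, while Eif4e3 and the oocyte form Eif4e1b were lower.

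**Figure D2:**
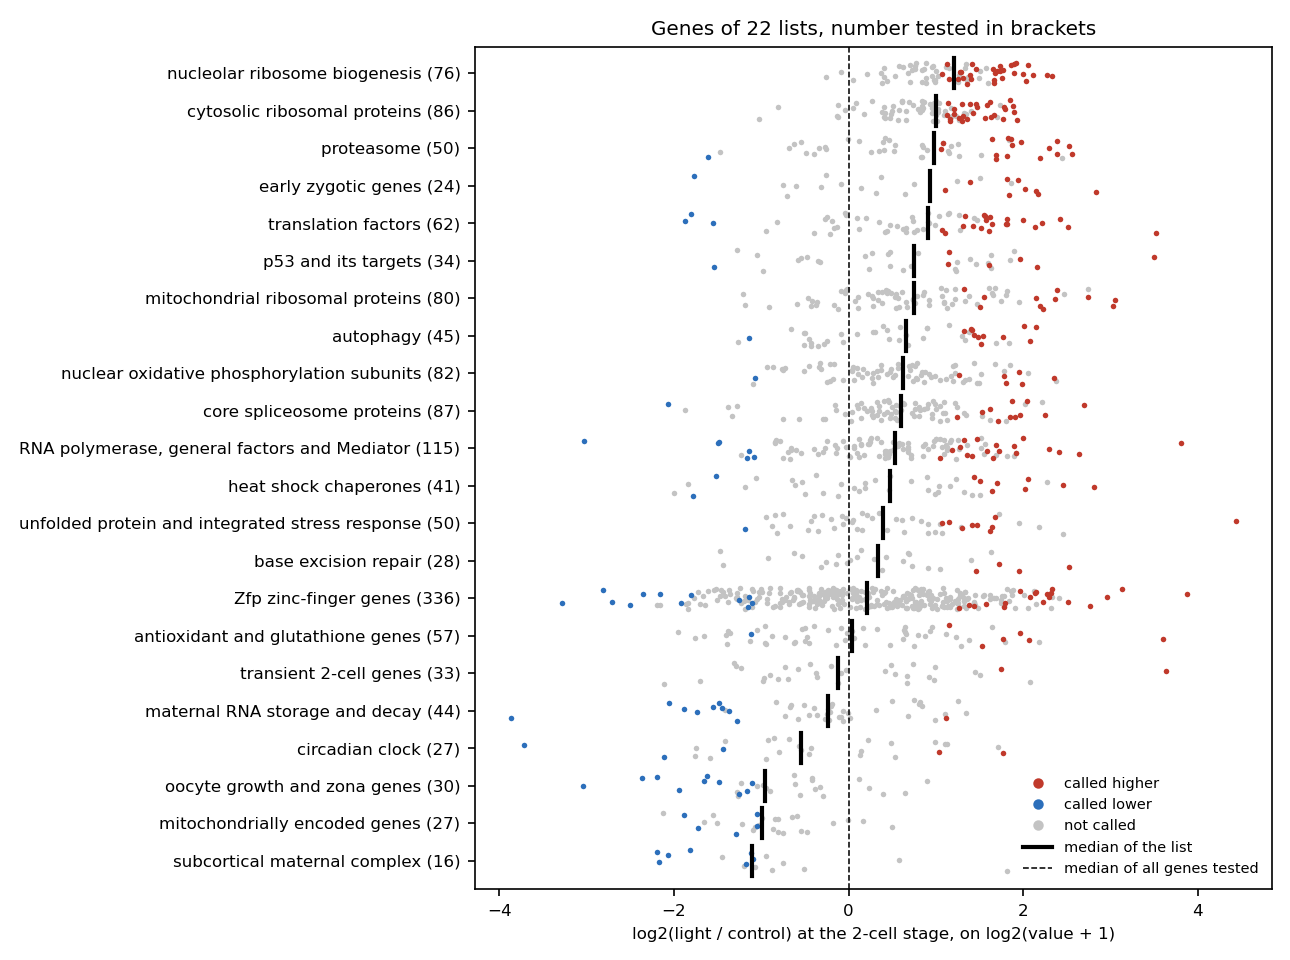
Light minus control difference on the log2 scale of each tested gene (points, colored by call) in 22 lists at the 2-cell stage, with bars at the list medians and a dashed line at the median of all genes tested. Points of nucleolar ribosome biogenesis lie around 1.20 and those of oocyte growth and zona genes around -0.96.

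Proteasome genes rose in 16 of 50 and fell in 1, with a median of 0.98, and 10 rose without light library 10, 12 or 14. Psma1, of the 20S core, was read at 5.22, 34.4 and 49.0 in the control and 69.9, 154 and 221 in the light group (2.38 ± 0.49, p = 0.00159). Psmc4, an ATPase of the 19S base, was read at 3.45, 6.95 and 40.6 against 42.7, 58.4 and 127 (2.53 ± 0.58, p = 0.00458). Psmd11, of the 19S lid, was read at 46.4, 138 and 386 against 338, 379 and 694 (1.83 ± 0.38, p = 0.00183). The gene that fell was Psme4, the PA200 activator known from germ cells, at 696, 795 and 1303 against 183, 276 and 370.4 (-1.61 ± 0.25, p = 0.000113). Ubiquitin conjugation genes had a median of -0.43, with 6 higher and 2 lower of 57.

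Chaperones rose in part. Of 41 heat shock chaperones 8 rose and 2 fell (median 0.48). Stip1, the adapter between HSP70 and HSP90, was read at 63.5, 161 and 305 in the control and 435, 744 and 1438 in the light group (2.06 ± 0.34, p = 0.000188), beside Hspa8 above. The inducible Hspa1b was read at no more than 7.59 in control and 11.7 in light libraries (-0.09 ± 0.78, p = 0.959), and Hsf1, the factor that induces it on heat, at 404, 519 and 592 against 259.8, 329.9 and 583 (-0.53 ± 0.26, p = 0.187). The inducible form and its activator were thus not called.

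Of 50 genes of the unfolded protein and integrated stress responses, 9 rose and 1 fell (median 0.40). Phgdh, which starts serine synthesis, was read at 0, 2.76 and 78.3 in the control and 38.9, 180.2 and 508 in the light group (4.43 ± 0.84, p = 0.000773), with a difference of 5.04 without control library 12 and 5.30 without light libraries 14 to 16. Pdia3, a disulfide isomerase, was read at 73.8, 188 and 296 against 397, 483 and 873 (1.68 ± 0.33, p = 0.00105) and Dnajb9, a cochaperone of the endoplasmic reticulum, at 148, 471 and 675 against 855, 1032 and 1809.9 (1.47 ± 0.29, p = 0.0011). Hspa5, the chaperone BiP, was at 1.42 ± 0.39 (p = 0.0175) and lost the call without light library 14 (p = 0.0647). Of the transcription factors of the response, Atf4 and Ddit3 were not called. Atf4 was read at 114, 179 and 275 against 97.0, 151 and 305 (p = 0.802), and Ddit3, which codes for CHOP, at 0, 9.37 and 25.0 against 6.7, 12.0 and 61.7 (p = 0.514).

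The mitochondrion showed opposite signs of the list medians for its nuclear and its own genes. Mitochondrial ribosomal proteins rose in 11 of 80 and fell in 0, with a median of 0.75. Mrpl22 was read at 3.45, 15.6 and 33.9 in the control and 35.0, 81.3 and 181 in the light group (2.22 ± 0.56, p = 0.00869). Mrps9 was listed at 0 in 4 of 7 control libraries, at most at 5.55, and at 0, 13.0 and 29.7 in the light group (2.47 ± 0.84, p = 0.0552). The count came to 4 without light library 12, to 5 without control library 9 or 10 or light library 14, to 6 without light library 9 or 10, and to 7 without control library 11 or 24 or without light libraries 14 to 16. Nuclear subunits of oxidative phosphorylation rose in 6 of 82 and fell in 1 (7.32% and 1.22% of the list), with a median of 0.63. Of all genes 5.53% rose and 4.96% fell, and the 8.54% of the list called lay under the 10.5% of all genes. Atp5a1, the alpha subunit of ATP synthase, was read at 72.9, 154 and 199 against 470.2, 513 and 778 (1.99 ± 0.30, p = 8.24e-05), and Atp5b, the beta subunit, at 288, 398 and 478 against 656, 1012 and 1249 (1.26 ± 0.24, p = 0.000829).

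Of 27 mitochondrially encoded genes, 5 fell and 0 rose, with a median of -0.99 (-0.63 after quantile normalization). The counts were 3 without control library 12, light library 9 or light library 12, and 9 without light library 15. mt-Nd6, the subunit coded on the light strand, was read at 408, 770.3 and 1290.3 in the control and 132, 183 and 274 in the light group (-1.89 ± 0.28, p = 7.82e-05). In contrast, mt-Co1, a catalytic subunit of cytochrome c oxidase, was read at 5821, 7535 and 12936 against 4501, 8654 and 13377, with a difference of 0.00 ± 0.22 (p = 0.998). The list made up 5.50% to 8.68% of values in the control and 4.09% to 8.31% in the light group. Lars2, the nuclear gene of the mitochondrial leucyl-tRNA synthetase, was read at 6285, 11688 and 26747 against 2462, 3532 and 3982 (-1.80 ± 0.23, p = 1.62e-05), opposite to Hars2. The level of Lars2 was far above that of Hars2, and whether all its reads come from this gene was not tested. Whether its difference goes with the ratio of Gm42418 to CT010467.1, which also separated the groups, was not tested either. Of 34 mitochondrial translation factors, 4 rose and 1 fell (median 0.58).

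RNA processing and the transcription machinery rose in part. Core spliceosome proteins rose in 11 of 87 and fell in 1 (median 0.60, 7 higher without light library 14 and 19 without light library 16). Ctnnbl1, of the PRP19 complex, was read at 18.6, 58.4 and 78.2 in the control and 133, 172 and 273 in the light group (2.05 ± 0.41, p = 0.00117), and Snrpa1, of the U2 snRNP, at 26.6, 41.4 and 69.5 against 115, 151 and 271 (1.90 ± 0.38, p = 0.00108). SR and hnRNP regulators of splicing rose in 16 of 63 and fell in 5 (median 0.43, 10 higher without light libraries 14 to 16). Hnrnpab was read at 142, 333 and 533 against 1131, 1554 and 2529 (2.32 ± 0.28, p = 7.75e-06), Srsf1 at 108, 295 and 583 against 629.5, 1055 and 1465 (1.91 ± 0.31, p = 0.000202) and Srsf7 at 14.5, 58.8 and 144 against 139.9, 284 and 671 (2.39 ± 0.46, p = 0.000896). The groups did not overlap for these genes except Srsf7.

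RNA polymerase, general factor and Mediator genes rose in 18 of 115 and fell in 6, with a median of 0.53. The number that rose was 10 without control library 9 or light library 10, 11 without control library 8 or light library 14, and 6 without light libraries 14 to 16. Gtf2h1, like Gtf2h2 a TFIIH subunit, was read at 16.7, 77.1 and 244 in the control and 212, 293 and 675 in the light group (2.30 ± 0.43, p = 0.000664). Med30, a metazoan Mediator subunit, fell from 91.3, 142 and 203 to 1.67, 21.0 and 35.2 (-3.03 ± 0.51, p = 0.000239). Of 336 Zfp genes, which code for zinc-finger proteins, 20 rose and 12 fell (5.95% and 3.57%, against 5.53% and 4.96% of all genes). There were 13 higher without light library 10, 12 or 14 and 7 lower without light library 12. Zfp622, a ribosome maturation factor by function, was read at 55.2, 199 and 541 against 547, 730.1 and 1259.6 (2.14 ± 0.40, p = 0.000687), Zfp263 at 15.6, 25.2 and 52.1 against 94.1, 124 and 220.2 (2.33 ± 0.43, p = 0.00056), and Zfp532 at 155, 190.2 and 264 against 30.2, 53.3 and 73.8 (-1.92 ± 0.35, p = 0.000468).

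Some genes of stress and DNA damage rose. Of 34 tested genes of the p53 list, 6 rose and 1 fell (median 0.75, 3 higher without light libraries 14 to 16). These were 17.6% and 2.94% of the list, against 5.53% and 4.96% of all genes. Trp53 was read at 8.33, 28.7 and 92.4 in the control and 55.0, 119.8 and 282 in the light group (2.16 ± 0.55, p = 0.0102). Ei24, a p53 target of the endoplasmic reticulum, was read at 49.0, 301 and 467 against 569, 839.6 and 1249.9 (1.96 ± 0.37, p = 0.000817), and Sesn2, a sestrin, at 162, 308 and 505 against 509, 605 and 948 (1.15 ± 0.30, p = 0.0106). Cdkn1a, which codes for p21, was read at 12.5, 33.4 and 41.7 against 36.7, 67.6 and 154 and did not pass (1.39 ± 0.48, p = 0.059). Of 38 BCL2 family and caspase genes, 4 rose and 2 fell (10.5% and 5.26%). Pmaip1, which codes for NOXA, was read at 0, 1.3 and 23.0 against 7.77, 43.7 and 257 (3.50 ± 0.93, p = 0.0127). Without light libraries 14 to 16, Trp53 (2.12, p = 0.0606), Sesn2 (1.14, p = 0.0514) and Pmaip1 (3.05, p = 0.0917) were not called, with differences close to those in all libraries for Trp53 and Sesn2.

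Base excision repair had 4 genes higher and 0 lower of 28, with Parp1 at 38.9, 120.4 and 169.7 against 105, 250.2 and 518 (1.46 ± 0.39, p = 0.0128), the DNA ligase Lig3 at 1.72 ± 0.46 (p = 0.0129), and Apex1, the abasic site endonuclease, at 1.95 ± 0.54 (p = 0.0161, and 1.97 with p = 0.0737 without light libraries 14 to 16). Nucleotide excision repair had 2 higher and 0 lower of 31 (6.45% higher). Double-strand break and checkpoint genes had 5 and 4 of 60 (8.33% and 6.67%), and DNA replication 3 and 2 of 49 (6.12% and 4.08%). The shares of higher genes in these 3 lists were near the 5.53% of all genes, with 4.96% of all genes lower. The kinase Chek2 was read at 26.0, 62.5 and 120.0 against 75.1, 207 and 324 (1.60 ± 0.41, p = 0.0107, and 2.22 without light libraries 14 to 16). Antioxidant and glutathione genes had 6 higher and 1 lower of 57, with a median of 0.04. Hmox1, heme oxygenase, was at 0 in 4 of 7 control libraries, at most at 20.0, and at 5.67, 28.7 and 105 in the light group (3.60 ± 0.90, p = 0.00827, and 2.37 with p = 0.139 without light libraries 14 to 16). Glrx3, a glutaredoxin, rose by 2.06 ± 0.47 (p = 0.00399). The superoxide dismutases were not called, with Sod1 at 71.0, 96.5 and 115 against 73.1, 101 and 208 (p = 0.782) and Sod2 at 26.1, 57.1 and 113 against 55.3, 147 and 217 (p = 0.0864).

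Of the genes that answer serum or light in other cells, immediate early factors were called about as often as all genes. Of 27 immediate early transcription factors 1 rose and 2 fell (11.1% called, against 10.5% of all genes), with a median of 0.10 and 14 positive. Btg1, an antiproliferative factor, rose from 6.25, 27.4 and 82.6 to 6.61, 289 and 565.6 with overlap (2.52 ± 0.69, p = 0.0167), with a difference of 3.39 without light library 12 and a lost call without light library 14 (p = 0.0587) or libraries 14 to 16 (0.88, p = 0.518). Fosb was read at 21.8, 43.8 and 75.2 in the control and 1.68, 7.51 and 21.7 in the light group (-2.38 ± 0.62, p = 0.0119), Srf, which drives many of these genes, at 62.5, 117 and 210.1 against 16.4, 41.7 and 58.9 (-1.77 ± 0.42, p = 0.00522), and Egr1 at 25.2, 56.2 and 103 against 9.91, 14.3 and 48.4 (-1.46 ± 0.53, p = 0.0697). Of 27 circadian clock genes 2 rose and 3 fell (18.5% called), with a median of -0.54. Btrc, a subunit of the ubiquitin ligase that acts on period proteins, was read at 4.17, 27.8 and 34.4 against 35.2, 83.0 and 128 (1.77 ± 0.54, p = 0.0292, and not called in 5 of the fits that left out 1 library). Per3, a period gene, was read at 135, 274 and 346 against 39.7, 52.9 and 75.1 (-2.11 ± 0.34, p = 0.000172), and Bhlhe40, an E-box repressor, at 17.4, 42.4 and 126 against 0, 2.08 and 23.3 (-3.72 ± 0.79, p = 0.00212). Clock was read at 430.4, 549.8 and 979 against 198, 368 and 458 (-0.68 ± 0.27, p = 0.0975).

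Autophagy genes rose in 11 of 45 and fell in 1 (median 0.66). Map1lc3a, which codes for LC3A, was read at 26.2, 100.2 and 317 in the control and 332, 364 and 856 in the light group (2.08 ± 0.41, p = 0.00117), Bnip3, a mitophagy receptor, at 19.3, 77.0 and 112 against 155, 241 and 493 (2.14 ± 0.39, p = 0.000558), and Lamp1, of the lysosomal membrane, at 23.0, 40.4 and 132 against 148, 179 and 371 (2.00 ± 0.41, p = 0.00171). None of the 3 overlapped. Cyclins and cell cycle kinases had 9 higher and 3 lower of 66. Ccnb1, the mitotic cyclin, was read at 136, 373 and 594 against 816, 983 and 1433 (1.58 ± 0.29, p = 0.000482), Ccne1, of the G1 to S transition, at 120.2, 366 and 681 against 553, 833 and 1675 (1.62 ± 0.33, p = 0.00177), and the mitotic kinase Aurka at 70.4, 141 and 298 against 279.8, 439 and 652 (1.64 ± 0.33, p = 0.00128). Ccna2 did not pass (0.69 ± 0.25, p = 0.0738).

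DNA methylation and heterochromatin genes had 5 higher and 3 lower of 56, with a median of 0.21 and 33 positive. Trim28, the corepressor of zinc-finger proteins, was read at 60.4, 202 and 368 in the control and 322.5, 506 and 678 in the light group (1.57 ± 0.37, p = 0.00522). The genes that fell had smaller p. Suz12, of the Polycomb complex PRC2, was read at 1395, 1564 and 2239 in the control and 431, 510.3 and 757 in the light group (-1.61 ± 0.22, p = 2.32e-05), Tet3, the oocyte dioxygenase that oxidizes methylcytosine, at 747, 814 and 1632 against 137, 304 and 486 (-1.77 ± 0.28, p = 0.000172), and Kdm6b, a demethylase of H3K27, at 372, 452 and 904 against 95.8, 175 and 339 (-1.62 ± 0.31, p = 0.000792). Dnmt1 was not called (-0.34 ± 0.35, p = 0.584). Pluripotency and lineage factors had 4 higher and 2 lower of 30, and Pou5f1 was read at 96.8, 186 and 289.6 against 65.2, 89.7 and 200.2 (-0.73 ± 0.36, p = 0.199). Cell adhesion had 4 higher, among them Cxadr, and 4 lower of 47. Cdh3, P-cadherin, was read at 167, 216 and 286 against 6.7, 59.8 and 174 (-2.21 ± 0.48, p = 0.00277), and Itga6, an integrin, at 364, 579 and 1001 against 124, 225 and 297 (-1.51 ± 0.29, p = 0.000852).

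The lists of small-molecule metabolism had between 5.26% and 16.7% of their genes called, against 10.5% of all genes. The arginase and polyamine list had 3 higher and 1 lower of 28, with Odc1, which turns ornithine into putrescine, at 236, 693 and 992 against 1141, 1692 and 1959.7 (1.56 ± 0.29, p = 0.000678), beside Arg1 upstream of it. Glycolysis had 2 higher and 0 lower of 38, and cholesterol and fatty acid synthesis 3 and 0 of 44. Metallothioneins and zinc handling had 3 and 1 of 24. Slc30a3, a zinc transporter, was read at 129.6, 355 and 613 against 40.2, 73.9 and 124 (-2.13 ± 0.39, p = 0.000527), and Mt1 at 171, 416 and 719 against 229, 557 and 757 (p = 0.611). Amino acid and taurine transporters had 1 and 1 of 28, with Slc6a9, the glycine transporter of early embryos, at 204, 366 and 705 against 39.1, 153 and 190.4 (-1.80 ± 0.39, p = 0.00233). Slc6a6, the taurine transporter, which with Gm42418 and CT010467.1 set the scale of the values, was at -0.12 ± 0.40 (p = 0.883). Counts of 5 or fewer calls in a list moved by more than 1.5 times in many of the fits that left out 1 library and are given as counts only.

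The next stage showed where these genes stood later. The 4-cell libraries of the series (8 light and 6 control libraries, the light group lit at the 2-cell stage) share no library with the 2-cell comparison. Whether some of them are cells of the same embryo is not given, so 8 and 6 may count cells. Y-linked reads were at or near 0 in control libraries 1 and 2 and higher in all other 4-cell libraries. The ratio of Gm42418 to CT010467.1 was 4.55 and 4.35 in control libraries 1 and 2. This ratio was 1.61 to 1.98 in control libraries 3 to 6 and 1.43 to 1.63 in the light group. Whether sex or library preparation bears on the 4-cell and interaction p-values was not tested. The 1024 genes that were higher at the 2-cell stage had a median of 131 over genes of the control mean at the 4-cell stage, and 32 of them (3.13%) had a control mean under 1. For the 919 lower genes the median was 8.40 and 196 (21.3%) were under 1, against 6.25 and 30.0% for all 18510. Bmp15 had a control median of 20.6, Cnot6l 0.898, Ybx2 1.17, Per3 0.41 and Med30 0.981 at the 4-cell stage. In contrast, Hspa8 had 4327, Nop56 541, Rplp0 2055, Psma1 201 and Phgdh 558. For these 10 genes, chosen after their values were seen, the 2-cell light median lay between the 2-cell and the 4-cell control medians. The summed level of oocyte growth and zona genes had medians of 2.12% in 2-cell controls, 0.914% in 2-cell light libraries and 0.299% in 4-cell controls. For the subcortical maternal complex they were 1.30%, 0.768% and 0.0377%, for nucleolar ribosome biogenesis 0.646%, 1.44% and 1.99%, for cytosolic ribosomal proteins 0.637%, 1.07% and 5.34%, for the proteasome 0.330%, 0.477% and 1.03% and for early zygotic genes 0.456%, 0.639% and 1.30%. In these 6 lists, chosen after their values were seen, the 2-cell light median lay between both controls, as it did in 26 of 39 lists. In the other 13 it did not. For the unfolded protein and integrated stress response the medians were 0.532%, 0.755% and 0.619%, for Zfp genes 1.30%, 1.54% and 0.889%, for transient 2-cell genes 0.180%, 0.208% and 0.0520%, and for mitochondrial translation factors, which include Lars2, 0.777%, 0.353% and 0.683%. Whether this order reflects age at collection or light cannot be told apart in this design.

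**Figure D3:**
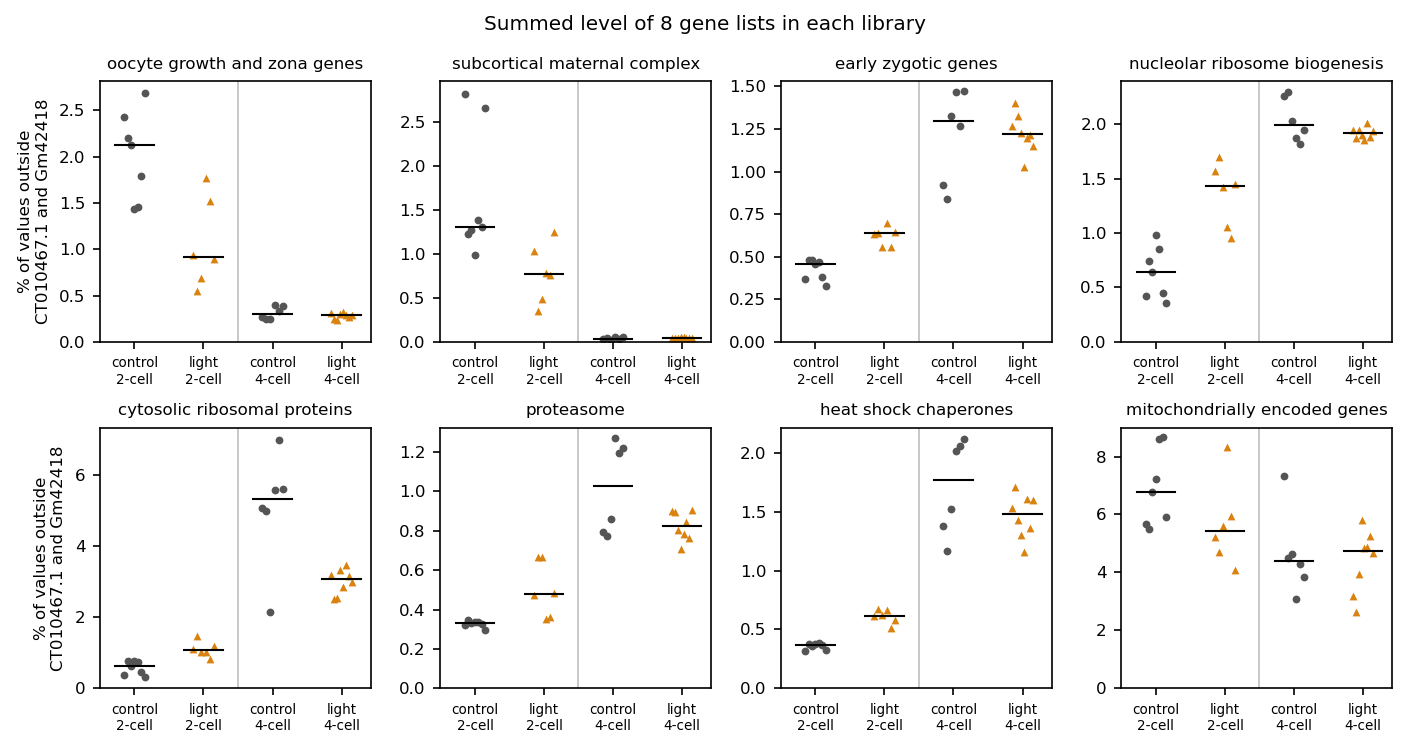
Summed level of 8 lists, as a percent of the values outside CT010467.1 and Gm42418, in each library of the control and light groups at the 2-cell and 4-cell stages (n = 7, 6, 6 and 8), with bars at the group medians. For nucleolar ribosome biogenesis the medians are 0.646%, 1.44%, 1.99% and 1.92%.

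Light against control at the 4-cell stage called 218 of 14995 genes (1.45%), and 772 of 14824 (5.21%, 2.62% higher and 2.59% lower) without control library 3 of that stage. That library was left out as an alternative because it had been seen earlier to lie apart. Its median correlation was 0.788 with its own group and 0.844 with the light group, so leaving it out can widen the contrast. Control libraries 1 and 2, both at 0.732 with their own group, were kept. Of the 1024 higher genes, 1005 were tested at the 4-cell stage and 70.0% of these had a positive difference there, with a median of 0.36, against 56.8% and 0.15 for all genes tested at both stages. Of the lower genes 773 were tested and 46.7% had a negative difference. The 53.3% with a positive one lay below the 56.8% of all genes tested at both stages. Of all 919 lower genes, 21.3% had a 4-cell control mean under 1, where a fall could hardly show. Whether the light minus control difference was the same at both stages was tested by an interaction term. It called 627 of 20372 genes (3.08%), 295 more positive (1.45%) and 332 more negative (1.63%) at the 2-cell stage (292 and 613 after median ratio scaling). Without control library 3 of the 4-cell stage it called 968 (4.76%), 530 of them more positive (2.61%). Cytosolic ribosomal proteins had 33 of 86 more positive at the 2-cell stage and 0 more negative. Their median difference was 1.00 in 2-cell and -0.81 in 4-cell libraries, where 6 fell and 0 rose (50 fell without control library 3, with a median of -1.15 and 63 interactions). Nucleolar ribosome biogenesis had 11 and 0, the proteasome 8 and 2, translation factors 7 and 0, and oocyte growth and zona genes 0 and 5.

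Single genes with an interaction were of several kinds. Ptprs, a receptor phosphatase, was read at 36.5, 56.3 and 93.7 in 2-cell controls and 7.77, 17.2 and 28.4 in 2-cell light libraries (-1.75 ± 0.50, p = 0.0214, and 0.0549 without control library 10 or 0.0507 without light library 9), whereas at the 4-cell stage its median was 0.19 in the control and 19.8 in the light group. The interaction was -5.33 ± 0.87 (p = 0.000986). Hes1, a Notch target, was read at 42.7, 102 and 201 against 0.826, 21.7 and 81.6 (-2.59 ± 0.65, -1.96 without light library 12) and had 4-cell medians of 8.32 and 97.6 (interaction -5.43 ± 1.12, p = 0.00858). Panx1, a channel protein, had medians of 66.6 and 6.69 at the 2-cell stage (-2.91 ± 0.66, and -3.58 without light library 16) and of 0.426 and 3.19 at the 4-cell stage (interaction -4.56 ± 1.09, p = 0.0188). Bex1 had the largest positive interaction of the genes named by the rule, 6.72 ± 1.67 (p = 0.022), with 2-cell medians of 0 and 23.2, although its 2-cell difference did not pass (p = 0.119) and light libraries lay between 0 and 307.

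Several of the largest 2-cell changes differed between the stages in this test. They were chosen by the same 2-cell libraries, which favors a larger difference at that stage, so these results are a description. Cxadr had 4-cell medians of 132 and 236 (interaction 4.02 ± 0.77, p = 0.00557), Hars2 of 41.5 and 46.8 (3.65 ± 0.94, p = 0.0257), and Gtf2h2 of 86.6 and 119.8 (3.48 ± 0.80, p = 0.0158). For Bmp15 the interaction was -3.03 ± 0.59 (p = 0.00608) and for Cnot6l -3.63 ± 0.85 (p = 0.0161). Cnot6l was barely read in 4-cell controls, so a fall of the 2-cell size could not show there. It did not pass for Arg1 (3.47 ± 1.22, p = 0.107), Nxf2 (3.89 ± 1.30, p = 0.0848), Hnrnpab (0.86 ± 0.54, p = 0.408), Lars2 (-0.45 ± 0.35, p = 0.527) or mt-Nd6 (-0.41 ± 0.58, p = 0.755). Lars2 was lower in the light group at both stages, with differences of -1.80 and -1.34 (p = 0.0142 at the 4-cell stage). mt-Nd6 had 4-cell medians of 478 and 131 (-1.48, p = 0.0852), and mitochondrially encoded genes had a 4-cell median difference of -0.93. Lars2 and the mitochondrially encoded genes thus had the same sign at both stages, unlike the cytosolic ribosomal proteins.

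**Figure D4:**
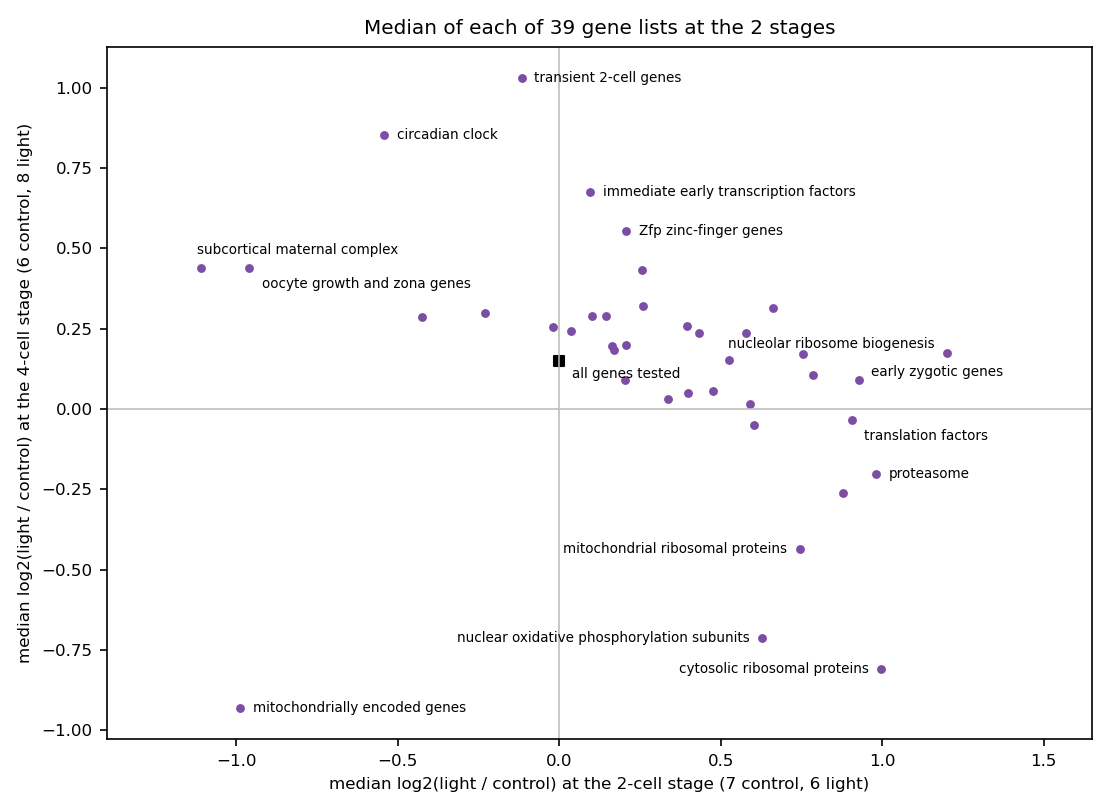
Median light minus control difference (log2) of 39 lists at the 2-cell stage (horizontal axis) and at the 4-cell stage (vertical axis), with a square for all genes tested. Cytosolic ribosomal proteins lie at 1.00 and -0.81 and oocyte growth and zona genes at -0.96 and 0.44.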

How the data were processed

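SMART-seq2 RNA libraries of 2-cell embryos (6 light, 7 control) were analyzed, with the 4-cell libraries (8 and 6) for comparison. The authors counted reads on 26414 genes, and processing notes name HISAT2, HTSeq 0.9.1 and mm9. The deposited values are a signal, reads scaled by 1 factor for each library that CT010467.1, Gm42418 and Slc6a6 set. The methods of the study describe RPKM, but no division by length was found in the values. Whole reads were recovered from the deposited signal within 0.01 reads, with a lowest share of 99.97% among 2-cell libraries. The design allowed for RPKM or counts, and the test for normalized values was kept. Total counts of reads recovered from the deposited table were 836010 to 8151789 per 2-cell library, and fewer reads give less precise values.

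Genes exceeding a value of 1 in 3 or more of the compared libraries were tested in R 4.3.3 by limma 3.58.1, using lmFit and eBayes with a trend, after a pseudocount of 1 and log2. The threshold was a Benjamini-Hochberg adjusted p under 0.05 together with a 2-fold change. The interaction of light and stage was fitted over the 2-cell and 4-cell libraries. A pseudocount understates the change of low genes. Groups came from the labels, with no covariate. Symbols turned into dates (24, at most 0.0379% of reads) were not tested. Library measures were compared by two-sided exact permutation tests. Python 3.11.15 with numpy 2.4.6, pandas 2.3.3, scipy 1.17.1 and matplotlib 3.10.9 was used for the rest, and promoters came from RefSeq on GRCm38.p6, with no coordinate converted from mm9.

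Members and gene lists (43) were chosen with earlier results of these data known. The genes named are the 8 largest rises and 8 largest falls without overlap and with a mean of at least 10 and a named gene, the called genes with the smallest p of each list (at most 4), key genes of the lists, genes named by the study, the genes that set the scale and the 4 largest interactions each way. Not all were printed, and some results are not reported here. On simulated data with 200 of 18510 genes changed 4-fold in the 2-cell comparison, limma recovered 82 (41.0%) with 2 false calls and 0 in the wrong direction, and edgeR recovered 109 with 13 false calls. For the interaction limma recovered 13 of 200 among 20372 genes (6.5%). The changed genes were drawn from those with a mean of at least 10. The simulated libraries were independent, and for the interaction each gene had the same mean at both stages before the change. The recovery and the false calls in the real data may therefore differ from these figures.

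The alternatives were a pseudocount of 0.1, no filter, a mean above 5, library weights, edgeR 4.0.16 and DESeq2 1.42.0 on the recovered reads. Values were also scaled by the median ratio, by the total outside CT010467.1 and Gm42418, or by quantiles. Thinning to equal reads, leaving out single libraries, blocking on the replicate number and an exact Wilcoxon test were run as well. Added after seeing the data were the fit without 3 shallow light libraries and edgeR with the block.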

Additional observations from a re-analysis of the deposited data

Results flagged for a closer look

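The light minus control difference was not the same at the 2-cell and the 4-cell stage for 44 of the genes named. This was judged by the interaction term of limma at an adjusted p under 0.05 and a difference of at least 2-fold. Light and developmental age cannot be told apart in it. Its p-values treat each library as independent, although some 4-cell libraries may be cells of the same embryo. Over all genes tested the term called 627 of 20372 (3.08%). Most of the genes named were picked by the same 2-cell libraries or by the term itself, which favors a call. The count of 44 is therefore a description and no further evidence. Each value below is the 2-cell difference minus the 4-cell difference on the log2 scale, fitted with a pseudocount of 1, on which the values of genes at or near 0 depend. Where a gene was near 0 in 4-cell controls, as Cnot6l and Med30 were, a fall of the 2-cell size could not show there. Interactions more positive at the 2-cell stage came to 6.72 for Bex1, 4.04 for Phgdh, 4.02 for Cxadr, 3.65 for Hars2, 3.48 for Gtf2h2, 3.27 for Mrps9, 2.96 for Eif3e, 2.66 for Mrpl22, 2.47 for Dkc1 and 2.34 for Nop56. Further positive interactions were 2.32 for Gtf2h1, 2.23 for Ltv1, 2.22 for Hspa8, 2.17 for Stip1, 2.16 for Glrx3, 2.16 for Rpl5, 2.04 for Rpl3, 2.02 for Psmd11, 1.94 for Ctnnbl1 and 1.94 for Bnip3. The smaller positive ones were 1.90 for Dppa2, 1.88 for Dppa4, 1.82 for Ctsl, 1.80 for Eef2, 1.76 for Snrpa1, 1.67 for Atp5a1 and 1.45 for Rplp0. More negative at the 2-cell stage were -5.43 for Hes1, -5.33 for Ptprs, -4.56 for Panx1, -4.26 for Smco4, -4.08 for Med30, -3.99 for Cyp26a1, -3.63 for Cnot6l and -3.52 for Crb2. Further negative interactions were -3.39 for Bhlhe40, -3.28 for Olfr976, -3.26 for Rfpl4, -3.21 for Btg4, -3.16 for Bcl2l10, -3.03 for Bmp15, -3.00 for Obox5, -2.08 for Psme4 and -1.99 for Zbed3. Without control library 3 of the 4-cell stage, Psme4 (-1.81, p = 0.0516) and Bnip3 (1.75, p = 0.0523) no longer passed, and Bex1 came to 7.60.

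Single libraries lay apart from the rest of their group on the log2 scale, by the gap to the nearest library against the range of the group (Dixon's 95% critical values). Of 268 groups tested, 17 did so for genes or library measures, and chance alone gives about 1 in 20. Among light libraries, library 12 had the lowest value of Cnot6l (58.6), of Rfpl4 (99.9) and of Btg1 (6.61) and the highest of Rpl5 (320.0) and Lamp1 (371). Light library 14 had the highest value of Atp5a1 (778) and Map1lc3a (856), and light library 15 the lowest of Med30 (1.67). The highest Cyp26a1 value was 7.77 in light library 16 and the highest Crb2 value 0.567 in light library 9, where the other light libraries were at 0. Among control libraries, library 9 had the highest Tnfaip6 (5.52), library 10 the lowest Hsf1 (404), library 12 the highest Clock (979), library 24 the highest Bex1 (35.8) and library 11 the lowest CT010467.1 (320978). Control library 8 was the deepest of its group, with 8151789 reads in all and 2833011 outside CT010467.1 and Gm42418. No explanation of these values was tested.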

How the results depend on the processing

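None of the 104 called genes followed by name changed direction under the alternatives run. The direction of the other calls was not followed gene by gene. Beside the 1943 calls of limma, the exact Wilcoxon test with the same fold change gave 1004 (439 higher, 565 lower), of which 936 were also called by limma. Leaving out 1 library gave between 1321 and 2198 calls, 675 to 1147 higher and 644 to 1051 lower, lowest in total without light library 12. edgeR on the recovered reads called 2161 (1056 higher, 1105 lower), DESeq2 2741. The share of calls that were lower, 47.3% in the limma fit, was 39.8% after thinning, 39.8% without control library 12 and 56.3% by the Wilcoxon test. The tools and scalings moved the median difference of all genes to between -0.087 and 0.087.

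No label says that a replicate number marks a shared litter, batch or day, and the 3 numbers shared by both groups did not pair the libraries. Correlations of deviations with the same number were -0.0127, -0.067 and 0.0089, and each of the 3 light libraries with a shared number correlated best with control library 17, not with its own number. With the replicate block limma called 0 genes (0 higher, 0 lower, 4446 at an unadjusted p under 0.05), and 0 interactions (0 and 0, with 3840 at an unadjusted p under 0.05), whereas edgeR with the block called 2754, of which 1551 were higher. The block leaves few residual degrees of freedom, and a call lost under it is no sign of a weaker effect.

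The interaction count of 627 (295 more positive, 332 more negative) was 408 with a pseudocount of 0.1 (199 more negative), 990 with library weights (540 more positive), 1094 with edgeR (517 and 577), 1629 with DESeq2 (659 and 970), and 968 without control library 3 of the 4-cell stage (530 more positive). Median ratio scaling gave 613 more negative, with the median interaction of all genes moved from -0.09 to -0.27, and thinning gave 211. The cause of these moves was not tested. The light minus control difference in the percent of mitochondrially encoded reads, -1.26, lay between -1.79 and -0.945 when 1 library was left out, and the exact permutation p fell to 0.0227 without light library 15. Depth limits genes of low value most, since 3 reads were worth up to 11.7 units.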
